A study of Homo sapiens with 6 samples.

Results

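The lysosomal gene set described here has 49 genes, chosen by gene symbol: 3 transcription factors of the MiT/TFE family, 5 lysosomal membrane proteins, 26 lumenal enzymes together with the activator precursor PSAP, and 15 subunits and accessory proteins of the vacuolar proton pump (V-ATPase). Each of the 49 symbols matched exactly 1 of the 60668 genes of the deposited table, and all 49 were among the 21101 genes with enough reads to be tested. The cells were MiaPaCa-2, an established line of human pancreatic ductal adenocarcinoma (PDAC) without a stated genetic change, and total RNA was sequenced as strand-specific, paired-end libraries. 3 libraries came from cells kept for 48 h in low glucose (2.5 mM, glucose-free DMEM with glucose added back) and 3 from control cells in standard DMEM (25 mM glucose). Both media contained fetal bovine serum, and the design text names the 3 libraries of a condition as independent biological replicates of this single line. The treatment field of the labels gives 2.5 mM for all 6 samples, and the groups follow the titles and the design text. The labels name 2 of the low-glucose columns (replicates 1 and 2), and the other libraries are numbered here by their order in the table.

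Lysosomes are acidic organelles in which hydrolases break down proteins, glycans, lipids and glycogen delivered by endocytosis and autophagy. Their lumen is acidified by the V-ATPase, a rotary pump whose cytosolic V1 sector hydrolyses ATP and whose membrane V0 sector moves protons, while heavily glycosylated membrane proteins line the limiting membrane. TFEB, TFE3 and MITF are related transcription factors that bind an E-box motif, named the CLEAR element, near the start sites of many lysosomal genes. When nutrients are plentiful, mTORC1 on the lysosomal surface keeps TFEB and TFE3 in the cytosol, so that their activity is known to be set by phosphorylation and location more than by transcript level. Pancreatic tumours are known for high autophagic and lysosomal activity.

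The members did not move as a block. In low glucose, 16 of the 49 rose, 10 fell and 23 did not pass the test (limma on log2 values, adjusted p under 0.05 over all 21101 genes, two-sided). Over all genes tested the same fit called 30.9%, with 14.7% higher and 16.2% lower. Because 46 of the members had a mean of at least 100 normalized counts, the nearer background is the 10149 genes at or above that level, of which 48.0% were called, 18.0% higher and 30.0% lower. The share of members called in either direction was therefore near that of genes at or above that level, with more rises and fewer falls. This is a description and was not tested. The median of the members' means was 853, so this background is not matched to their abundance. The median log2 fold change of the members was 0.14, beside 0.05 over all genes tested and −0.08 over the abundant genes. All 3 low-glucose libraries lay above all 3 control libraries for 17 members and below them for 12 (22.1% and 21.8% of all genes tested), and the ranges overlapped for 20. An exact permutation test of 3 against 3 libraries cannot give a p below 0.1, so single values were judged by the fit across all genes. In bulk RNA, a change in the share of cells that express a gene and a change in the amount per cell cannot be told apart.

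The balance of directions moved with the scaling. With library size in place of the deposited size factors, 20 members were called higher and 7 lower, and with quantile normalization 22 and 6; over all genes the split was 3111 higher to 3417 lower as deposited, 3935 to 2647 with library size and 2900 to 3125 with quantile normalization. The number of member calls also depended on single libraries: it was 17 without control library 1, 13 without low-glucose replicate 1, 15 without low-glucose replicate 2 and 15 without the third low-glucose library. 10 members passed under all 15 alternatives, namely ARSG, IDUA, ARSA, CTSD, TPP1, MANBA, NEU1 and PSAP, which were higher, and CTSC and LIPA, which were lower. The calls of ATP6V1A, ATP6V1B2, ATP6V1E1, ATP6V1F, CD63, HEXA, LAMP2 and SCARB2 were lost without control library 1 and without each of the 3 low-glucose libraries. ARSB lost its call without control library 1, low-glucose replicate 1 or the third low-glucose library. Of the remaining calls, CTSL was lost without any 1 of the low-glucose libraries, CTSH without replicate 1 or the third library, PPT1 without replicate 1 or 2, GLA without replicate 1 and CTSA without replicate 2. ATP6V1F and HEXA also lost their calls without control library 2, and ATP6V1B2 without control library 3. Conversely, GAA, GUSB and TFE3 passed only without control library 2 among these 6 refits, and ATP6V0B, ATP6V0E1, ATP6V1C1 and GLB1 only without control library 3.

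**Figure D1:**
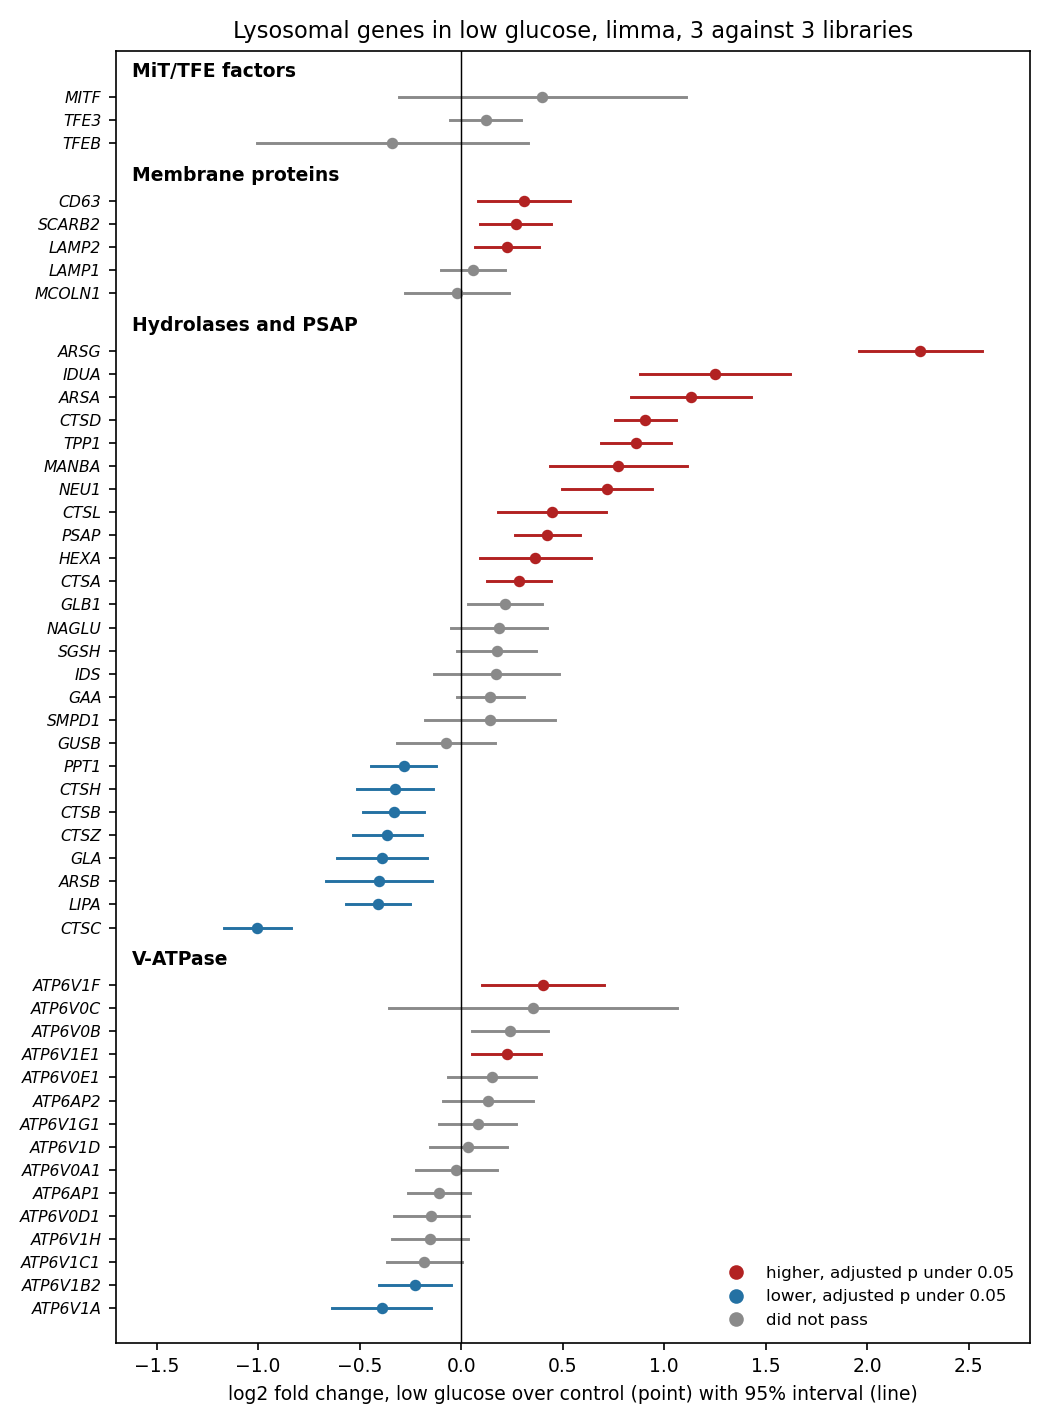
Log2 fold change of each of the 49 members in low glucose over control (points) with its 95% interval (lines), grouped by role and coloured by the call of limma. The 16 rises reach 2.26 for ARSG, the 10 falls reach −1.004 for CTSC, and most V-ATPase genes lie close to 0.

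No transcript of the MiT/TFE family passed the test. TFE3 (ENSG00000068323.17) carried nearly all of the family's RNA: its normalized counts were 1238, 1403 and 1228 in the control libraries and 1453, 1436 and 1315 in the low-glucose libraries. Those ranges overlap, and the log2 fold change was 0.12 ± 0.08 SE, adjusted p = 0.289 (95% interval -0.05 to 0.30). TFEB was scarce at 22.4, 23.4 and 23.5 in the control libraries and 12.5, 24.7 and 18.9 in the low-glucose libraries, with low-glucose replicate 1 the lowest library and replicate 2 the highest. Its log2 fold change was -0.34 ± 0.31 SE, adjusted p = 0.45, with an interval from -1.01 to 0.33. MITF, the factor named for the melanocyte lineage, was scarcer still at 11.2, 15.6 and 17.1 in the control libraries and 22.1, 22.7 and 14.4 in the low-glucose libraries, and the third low-glucose library lay inside the control range (log2 fold change 0.40 ± 0.33 SE, adjusted p = 0.396). Scaled to the length of its merged exons, the control level was 92.4 ± 6.66 TPM for TFE3, 1.04 ± 0.0115 for TFEB and 0.594 ± 0.116 for MITF. With the length of a single reference transcript (MANE Select) instead, the levels were 73.2 ± 7.23, 1.85 ± 0.0551 and 0.568 ± 0.111, in the same order. The scarcity of TFEB and MITF limits what could be detected: the lowest count of any member in any library was 10 reads, and the standard errors of both genes exceeded 0.3. TFEC, a further gene of the family, had no read in any library.

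The letters to which this family is known to bind were more frequent near the start sites of the members than near those of other genes. Because the motif is known from many lysosomal genes, this frequency is no separate result. The letters occurred both in members that rose and in members that did not. The windows searched were the 300 bases from 250 before to 50 after each start site in RefSeq (GRCh38.p14), which held 53 windows of 36 of the 49 members. The 6-letter palindrome CACGTG was found for 11 of these 36 genes (30.6%), beside 8.77% of all 27305 genes with a window and 13.3% of those whose mean reached 100. GTCACGTG, searched on both strands, was found for 9 (25%), beside 2.93% and 5.73%, and the palindrome TCACGTGA for 6 (16.7%), beside 1.18% and 2.52%; both longer motifs contain the shorter one. Among members with a window, CACGTG was present for 4 of 11 that rose (CTSA, CTSD, NEU1 and CD63), 1 of 7 that fell (ARSB) and 6 of 18 that did not pass (GAA, LAMP1, MCOLN1, ATP6V0B, ATP6V0D1 and ATP6V1G1). It was found for none of the 3 transcription factors. Called members without a window were ARSA, HEXA, LAMP2, MANBA and PSAP, which rose, and CTSB, ATP6V1A and ATP6V1B2, which fell. These counts describe letters in a window and were not tested, and a match is not a bound site.

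The sequences below show the 3 genes whose windows hold all 10 letters of the CLEAR element, LAMP1 with its 6 copies, and the 5 members with the letters that passed the test. Each is written 5′ to 3′ along the gene, and capitals mark CACGTG with any adjoining letters that continue the match to GTCACGTGAC.
GAA (chr17:80101493-80101567, plus strand): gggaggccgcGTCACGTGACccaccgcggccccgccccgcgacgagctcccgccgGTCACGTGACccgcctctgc
MCOLN1 (chr19:7522571-7522627, plus strand): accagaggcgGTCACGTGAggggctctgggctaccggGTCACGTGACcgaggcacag
ATP6V1G1 (chr9:114587699-114587728, plus strand): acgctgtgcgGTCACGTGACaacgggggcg
LAMP1 (chr13:113297035-113297255, plus strand): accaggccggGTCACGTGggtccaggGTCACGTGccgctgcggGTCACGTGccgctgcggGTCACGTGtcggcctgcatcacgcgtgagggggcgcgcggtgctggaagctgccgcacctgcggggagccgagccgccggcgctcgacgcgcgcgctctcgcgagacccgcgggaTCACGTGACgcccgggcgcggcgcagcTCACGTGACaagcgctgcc
CTSD (chr11:1763957-1763986, minus strand): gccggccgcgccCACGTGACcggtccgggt
CTSA (chr20:45891281-45891327, plus strand): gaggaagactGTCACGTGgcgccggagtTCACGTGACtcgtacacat
NEU1 (chr6:31862930-31862959, minus strand): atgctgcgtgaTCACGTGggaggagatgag
CD63 (chr12:55729172-55729201, minus strand): ccgggtaggggcCACGTGgccctggccggg
ARSB (chr5:78986101-78986130, minus strand): taattcaataagCACGTGACtaaaggattt

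The full 10 letters stood 73 and 28 bases before the start site of GAA, the enzyme of lysosomal glycogen breakdown, 11 before that of MCOLN1 and 55 before that of ATP6V1G1. None of these 3 genes passed the test. The log2 fold change was 0.14 ± 0.08 for GAA, -0.02 ± 0.12 for MCOLN1 and 0.08 ± 0.09 for ATP6V1G1 (SE). CTSD, the member with the letters that rose most, held 8 of the 10 at a single site 44 bases before its start. ARSB, which fell, also held 8 of the 10, at 157 bases before its start. Whether the length of the match goes with the fold change was not tested.

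**Figure D2:**
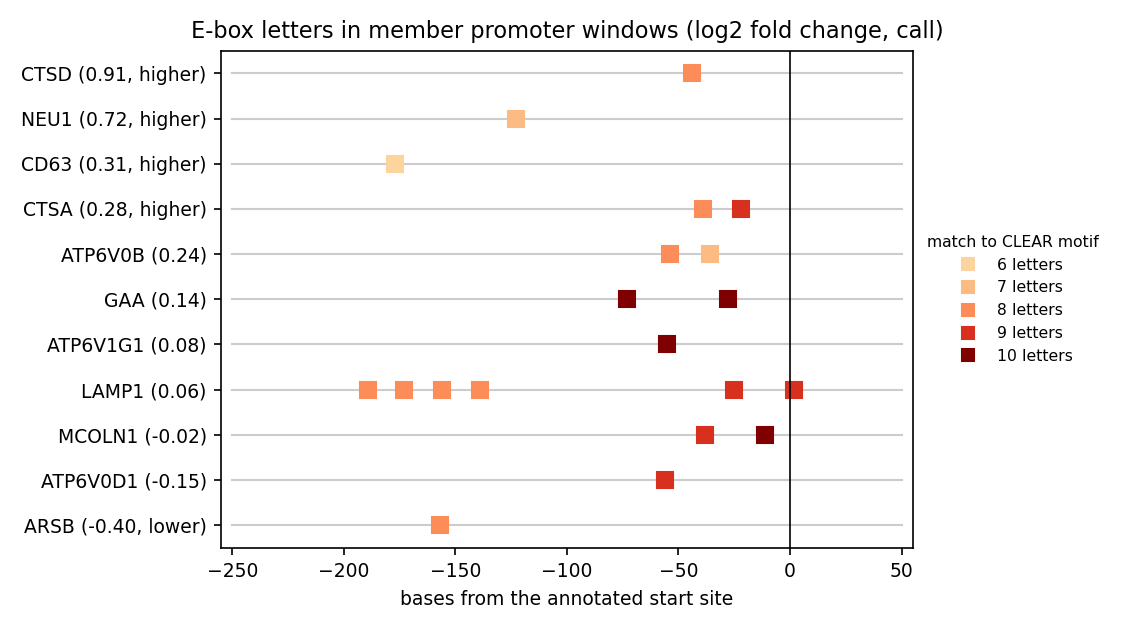
Position of each CACGTG match relative to the annotated start site (0) in the windows of the 11 members that hold one, ordered by log2 fold change and coloured by the number of letters, of 10, that match the CLEAR element. The 3 genes with a full match (GAA, ATP6V1G1 and MCOLN1) have log2 fold changes of 0.14, 0.08 and −0.02.

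Among the membrane proteins, 3 of 5 rose, each by less than 0.35 on the log2 scale, and none fell. All 5 had a mean of at least 100, a level at which 18.0% of genes were called higher and 30.0% lower. LAMP2, which is needed for fusion of autophagosomes with lysosomes and in 1 splice form for chaperone-mediated autophagy, had 1152, 1202 and 1174 in the control libraries and 1322, 1389 and 1418 in the low-glucose libraries. All low-glucose libraries exceeded all control libraries (log2 fold change 0.23 ± 0.07 SE, adjusted p = 0.0294). SCARB2, the receptor that carries glucocerebrosidase to the lysosome, likewise showed no overlap, at 826, 932 and 842 in the control libraries and 1003, 1014 and 1113 in the low-glucose libraries (log2 fold change 0.27 ± 0.08 SE, adjusted p = 0.0231). For CD63, a tetraspanin of late endosomes and exosomes, the counts were 868, 781 and 1082 in the control libraries and 1136, 1167 and 1055 in the low-glucose libraries. Control library 3 lay above the third low-glucose library, so the ranges overlapped although the test was passed (log2 fold change 0.31 ± 0.11 SE, adjusted p = 0.037). LAMP1, the most abundant member of this class per length and the partner of LAMP2 in the membrane coat, had 2814, 2958 and 3107 in the control libraries and 3033, 3061 and 3142 in the low-glucose libraries and did not pass (log2 fold change 0.06 ± 0.07, SE; 95% interval -0.10 to 0.21). MCOLN1, the calcium channel through which lysosomal calcium is known to reach calcineurin and TFEB, was at 235, 236 and 190.4 in the control libraries and 216, 203 and 231 in the low-glucose libraries. Its log2 fold change of -0.02 ± 0.12 (SE) was well inside the replicate spread.

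The lumenal proteins held the largest changes in both directions: of 26, 11 rose, 8 fell and 7 did not pass, and all 8 members whose log2 fold change reached 0.5 in size belonged to this class. The median log2 fold change of the 26 was 0.18. All 26 had a mean of at least 100, a level at which 18.0% of genes were called higher and 30.0% lower. The falls were near that share and the rises above it, which was not tested.

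ARSG (ENSG00000141337.12, chr17:68259182-68422731 of hg38), the sulfatase that removes 3-O-sulfate from heparan sulfate, changed most. Its normalized counts were 59.4, 61.3 and 61.0 in the control libraries and 354, 272 and 264 in the low-glucose libraries. The control libraries were nearly equal and every low-glucose library was more than 4 times higher than any of them, with replicate 1 the highest (ratio of means 4.90, log2 fold change 2.26 ± 0.14 SE, adjusted p = 7.01e-08). IDUA, the iduronidase of heparan and dermatan sulfate breakdown, had 91.9, 63.5 and 107 in the control libraries and 218, 188 and 209.9 in the low-glucose libraries. Control library 2 was the lowest and the ranges lay far apart (log2 fold change 1.25 ± 0.17 SE, adjusted p = 8.55e-05). ARSA, which desulfates sulfatide, the lipid that accumulates in metachromatic leukodystrophy, had 169, 130.4 and 154 in the control libraries and 351, 377 and 274 in the low-glucose libraries, again without overlap (log2 fold change 1.13 ± 0.14 SE, adjusted p = 2.74e-05). ARSB, the sulfatase of dermatan sulfate, moved the other way. It had 229.8, 237 and 194 in the control libraries and 154, 181 and 163 in the low-glucose libraries and fell (log2 fold change -0.40 ± 0.12 SE, adjusted p = 0.0215), so that of the 3 arylsulfatases among the members 2 rose and 1 fell; the sulfatases IDS and SGSH, given with the glycan enzymes, did not pass.

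Other glycosidases that rose were NEU1, MANBA and HEXA. NEU1, the sialidase that trims glycoproteins, had 206, 194 and 195 in the control libraries and 304, 355 and 324 in the low-glucose libraries (log2 fold change 0.72 ± 0.10 SE, adjusted p = 1.27e-04). For MANBA, the mannosidase that acts last in the breakdown of N-linked glycans, the counts were 77.4, 105 and 76.0 in the control libraries and 133, 150.2 and 157 in the low-glucose libraries. Both genes separated the conditions completely, with a wider control range for MANBA (log2 fold change 0.77 ± 0.16 SE, adjusted p = 0.00188). HEXA, the alpha subunit of hexosaminidase A, had 298, 231 and 337 in the control libraries and 339.6, 391 and 374 in the low-glucose libraries. Its lowest low-glucose library was just above its highest control library, and the call was narrow (log2 fold change 0.36 ± 0.13 SE, adjusted p = 0.0427). GLA, the galactosidase deficient in Fabry disease, fell from 559, 536 and 699 in the control to 439.6, 450.5 and 468 in the low-glucose libraries (log2 fold change -0.39 ± 0.10 SE, adjusted p = 0.00989). The enzyme complex of NEU1, CTSA and GLB1, in which CTSA protects the other two, had a member that did not pass: GLB1 counts were 500.0, 470.4 and 508 in the control libraries and 548, 564 and 604 in the low-glucose libraries, all higher in low glucose, at an adjusted p of 0.0713 (log2 fold change 0.21 ± 0.09, SE).

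The remaining glycan enzymes and SMPD1 did not pass the test. GUSB, the glucuronidase, had 715, 542 and 767 in the control libraries and 635, 642 and 624 in the low-glucose libraries, with control library 2 below and the other 2 controls above the low-glucose range (log2 fold change -0.08 ± 0.11 SE, adjusted p = 0.659). GUSB has many annotated pseudogene copies, of which the most covered, GUSBP1, held 105 to 148 reads per library, so its value is uncertain. IDS, which acts just before IDUA on the same sulfated glycans, had 109, 90.3 and 96.3 in the control libraries and 111, 106 and 116 in the low-glucose libraries (log2 fold change 0.17 ± 0.14 SE, adjusted p = 0.403). Of the exon bases of IDS, 6968 (74.97%) are shared with ENSG00000241489 on the same strand. That gene had at most 11 reads in a library and rose (log2 fold change 2.27 ± 0.69 SE, adjusted p = 0.021). The part of this overlap in the IDS value was not tested. For NAGLU and SGSH, both enzymes of heparan sulfate breakdown, log2 fold changes were 0.19 ± 0.11 and 0.17 ± 0.09 (SE). Their counts were 280.3, 235 and 220.4 in the control libraries and 279, 272 and 283 in the low-glucose libraries for NAGLU, and 354, 358 and 379 in the control libraries and 392, 438 and 403 in the low-glucose libraries for SGSH, where every low-glucose library exceeded every control. GAA had 1552, 1768 and 1595 in the control libraries and 1865, 1746 and 1807 in the low-glucose libraries and SMPD1, the acid sphingomyelinase, 147, 110.3 and 160.5 in the control libraries and 142, 153 and 161 in the low-glucose libraries, with overlapping ranges for both (adjusted p = 0.182 and 0.516). Of the 6 members that act on heparan sulfate (ARSG, IDUA, IDS, SGSH, NAGLU and GUSB), a group named after the values were seen, 2 rose and the other 4 did not pass. That share was near the 30.9% called over all genes tested and below the 48.0% of the abundant ones, so it is no result particular to this group.

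All 7 cathepsins among the members passed the test, 3 higher and 4 lower. All 7 had a mean of at least 100, and of all genes at that level 48.0% were called, 18.0% higher and 30.0% lower. The cathepsins were not tested as a group. Those outside the members gave no call. CTSV (log2 fold change -0.32 ± 0.18 SE, adjusted p = 0.198), CTSK, CTSO and CTSF did not pass, and CTSS had too few reads to be tested. CTSD, the main aspartic protease of lysosomes, had 1534, 1447 and 1479 in the control libraries and 2801, 2727 and 2833 in the low-glucose libraries, a rise with no overlap and little spread (log2 fold change 0.91 ± 0.07 SE, adjusted p = 5.35e-07). CTSL, a cysteine endopeptidase, had 2199, 1614 and 2557 in the control libraries and 2932, 2812 and 2793 in the low-glucose libraries. Control library 2 was far below the other controls, and without any 1 of the low-glucose libraries the call was lost (log2 fold change 0.45 ± 0.12 SE, adjusted p = 0.0134). CTSA, a serine carboxypeptidase, rose from 2190.5, 2015 and 2241 in the control to 2582, 2616 and 2644 in the low-glucose libraries (log2 fold change 0.28 ± 0.07 SE, adjusted p = 0.00872). CTSC, the dipeptidyl peptidase that activates granule serine proteases, fell most of the members. Its counts were 4003, 3815 and 4408 in the control libraries and 1986, 2029 and 2068 in the low-glucose libraries, a ratio of means of 0.498 (log2 fold change -1.0043 ± 0.08 SE, adjusted p = 4.43e-07). CTSB, the cysteine protease that also acts as a dipeptidyl carboxypeptidase, fell from 3259, 3233 and 3371 in the control to 2591, 2667 and 2578 in the low-glucose libraries (log2 fold change -0.33 ± 0.07 SE, adjusted p = 0.0023). CTSZ, a carboxypeptidase, fell from 1726, 1695 and 1961 in the control to 1351, 1445 and 1378 in the low-glucose libraries (log2 fold change -0.36 ± 0.08 SE, adjusted p = 0.00296). The counts of CTSH, an aminopeptidase, were 435, 429 and 431 in the control libraries and 339.6, 355 and 339 in the low-glucose libraries (log2 fold change -0.32 ± 0.09 SE, adjusted p = 0.0111). For these 4 genes every low-glucose library lay below every control library, as every one lay above for the 3 that rose. By mechanism, the aspartic and the serine protease rose. Of the 5 cysteine cathepsins among the members, CTSL rose while CTSB, CTSC, CTSH and CTSZ fell.

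TPP1, a serine tripeptidyl peptidase deficient in a childhood form of neuronal ceroid lipofuscinosis, rose from 601, 679.9 and 643 in the control to 1200.5, 1118 and 1176 in the low-glucose libraries (log2 fold change 0.86 ± 0.08 SE, adjusted p = 2.77e-06). PPT1, the thioesterase deficient in another form of that disease, fell from 3519, 3829 and 3627 in the control to 2874, 2987 and 3152 in the low-glucose libraries (log2 fold change -0.28 ± 0.07 SE, adjusted p = 0.00934). LIPA, the acid lipase that releases cholesterol and fatty acids from lipoprotein lipids, fell as well, from 4105, 3904 and 4324 in the control to 3070.5, 3005 and 3199 in the low-glucose libraries (log2 fold change -0.41 ± 0.07 SE, adjusted p = 7.14e-04). PSAP, the precursor of the saposins that present sphingolipids to their enzymes, was the most abundant member. Its counts of 7262, 6957 and 7525 in the control libraries and 9848, 9699.6 and 9606 in the low-glucose libraries did not overlap (log2 fold change 0.42 ± 0.07 SE, adjusted p = 6.27e-04).

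**Figure D3:**
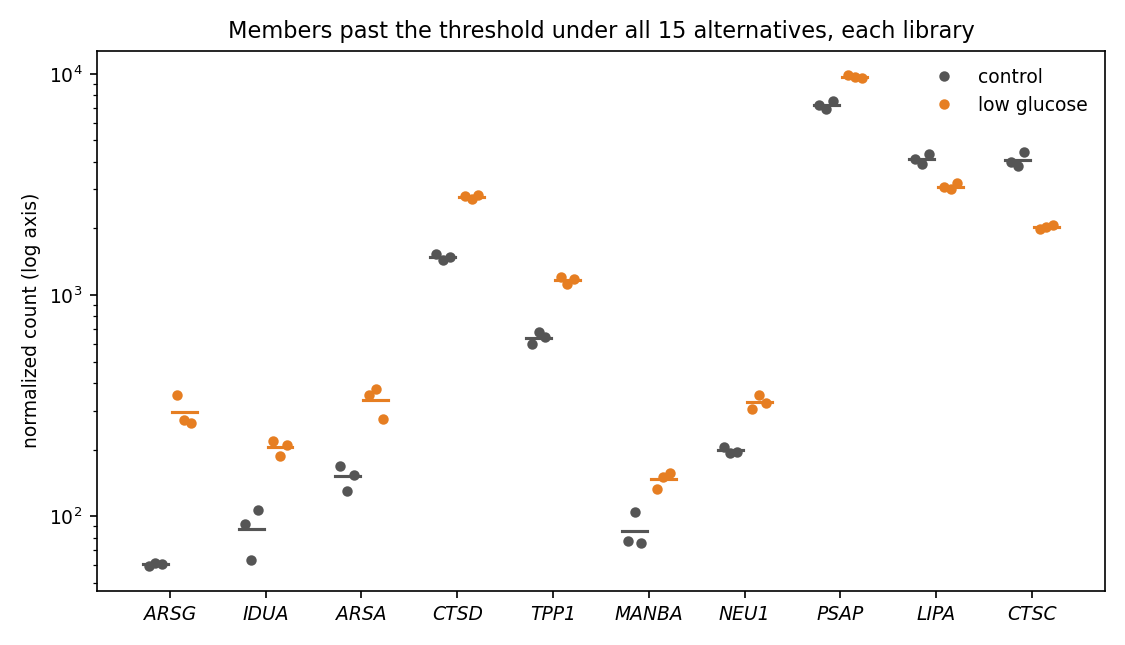
Normalized counts (log axis) of the 10 members that passed the test under all 15 alternatives, with 1 point per library and a bar at the mean of each condition. The 2 conditions do not overlap for any of the 10, and ARSG shows the widest gap.

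Some members overlap the exons of another gene, and the strand setting of the counting is not given in the sources used here. Of the 49 members, 24 share exon bases with an annotated neighbour (Gencode v44), 20 of them with a gene that had at least 10 reads in a library, and for 16 of these 20 such a neighbour lies on the opposite strand. ARSG shares 829 bases, 12.6% of its merged exons, with WIPI1 on the opposite strand, an autophagy gene whose mean rose from 105 to 725 (log2 fold change 2.78 ± 0.13, SE, adjusted p = 9.93e-09). CTSD shares 1331 bases (23.4%) with PRADX on the opposite strand, which rose (0.58 ± 0.08, beside 0.91 ± 0.07 for CTSD). IDUA shares 534 bases with SLC26A1 (0.89 ± 0.17), and CTSZ shares 6136 bases (31.7%) with NELFCD, which fell (−0.60 ± 0.07, beside -0.36 ± 0.08 for CTSZ). Of the other called members, LIPA, TPP1, HEXA, ATP6V1F, CTSA, CD63, GLA and ATP6V1A overlap opposite-strand genes with reads too. At CTSA these are PLTP (0.58 ± 0.09) and NEURL2 (0.88 ± 0.28), which rose, and ENSG00000271984 (0.17 ± 0.10), which did not pass. At LIPA there are 3, namely ENSG00000232110, which rose (0.79 ± 0.14), and IFIT2 (0.26 ± 0.10) and IFIT3 (0.07 ± 0.10), which did not pass. How many reads of such a member come from its neighbour was not tested. In a selection made after the values were seen, the 29 members that share no exon bases with a gene of at least 10 reads held 8 rises and 6 falls, with a median log2 fold change of 0.13. The share called was near the 48.0% of all genes with a mean of at least 100 (18.0% higher, 30.0% lower). ARSA, MANBA, NEU1, PSAP and CTSC are among them.

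The V-ATPase genes showed small changes in both directions. Of the 15, 2 rose, 2 fell and 11 did not pass, with a median log2 fold change of 0.03 and none at an absolute value of 0.5. The share called was near the 30.9% of all genes tested and below the 48.0% of the abundant ones, so it is no result particular to the pump. All 4 calls were in the V1 sector, where 8 subunits were measured, and none of the 5 V0 subunits or the 2 accessory proteins passed. A difference between the sectors was not tested. The adjusted p was 0.0417 for ATP6V1F, 0.0448 for ATP6V1E1 and 0.0477 for ATP6V1B2, beside 0.0509 for ATP6V0B. Of the V0 genes outside the 15, ATP6V0A2 (log2 fold change 0.36 ± 0.10 SE, adjusted p = 0.0124) and TCIRG1 (0.44 ± 0.09) rose, and ATP6V0E2 (-0.24 ± 0.10) did not pass.

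In the V1 sector the subunits that bind ATP, ATP6V1A and ATP6V1B2, were called lower, and neither call held under every alternative. The call of ATP6V1A was kept in 9 of the 15 alternatives. ATP6V1A, the catalytic subunit A, had 743, 578 and 522 in the control libraries and 451, 466 and 471 in the low-glucose libraries. Control library 1 stood above the other controls, and the conditions did not overlap (log2 fold change -0.39 ± 0.11 SE, adjusted p = 0.0169). ATP6V1B2, the B subunit that forms the hexamer with A, had 1274, 1084 and 1269 in the control libraries and 1015, 1039 and 1030.5 in the low-glucose libraries; its call was close to the threshold and was kept in 2 of the 15 alternatives (log2 fold change -0.23 ± 0.08 SE, adjusted p = 0.0477). Of the stalk subunits, ATP6V1E1 rose from 947, 999.8 and 1071 in the control to 1130.3, 1158 and 1237 in the low-glucose libraries (log2 fold change 0.22 ± 0.08 SE, adjusted p = 0.0448). ATP6V1F had 804, 594 and 1023 in the control libraries and 1045, 1061 and 1019 in the low-glucose libraries. Control library 2 was low and control library 3 lay within the low-glucose range, so the conditions overlapped (log2 fold change 0.40 ± 0.14 SE, adjusted p = 0.0417). The central stalk subunit ATP6V1D was at 538, 484 and 549 in the control libraries and 563, 512 and 533 in the low-glucose libraries (0.03 ± 0.09, SE) and the peripheral stalk subunit ATP6V1G1 at 846, 758 and 884 in the control libraries and 907, 802 and 921 in the low-glucose libraries (0.08 ± 0.09). Of the subunits that control the coupling of V1 to V0, the members ATP6V1C1 and ATP6V1H had negative log2 fold changes that did not pass. ATP6V1C2, another form of the C subunit and outside the 15, rose (log2 fold change 0.39 ± 0.08 SE, adjusted p = 0.00175) and passed under all 15 alternatives. Its control level per merged exon length was 148 ± 3.52 TPM (SD), beside 38.4 ± 2.67 for ATP6V1C1. ATP6V1C1 counts were 775, 766 and 695 in the control libraries and 642, 619 and 712 in the low-glucose libraries (log2 fold change -0.18 ± 0.09 SE, adjusted p = 0.132), and those of ATP6V1H were 457, 512 and 498 in the control libraries and 424, 450.5 and 441 in the low-glucose libraries (log2 fold change -0.16 ± 0.09 SE, adjusted p = 0.202).

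In the V0 sector ATP6V0B, a proteolipid of the proton-carrying ring, came closest to a call, with 797, 766 and 896 in the control libraries and 977, 1026 and 896 in the low-glucose libraries. All low-glucose libraries were above all controls, narrowly at the nearest pair, and the adjusted p was 0.0509 (log2 fold change 0.24 ± 0.09, SE). ATP6V0C, the main proteolipid of the ring, had 33.6, 31.2 and 55.6 in the control libraries and 40.4, 33.6 and 90.9 in the low-glucose libraries. The third low-glucose library stood far above the other 5, and the standard error was the largest of any member (log2 fold change 0.35 ± 0.33 SE, adjusted p = 0.461). These counts are far below those of its partner subunits, and 862 of its exon bases (60.9%) are shared with a readthrough transcript on the same strand that was listed with 0 reads. The part of this overlap in the value was not tested. ATP6V0A1, the subunit that forms the proton half-channels, had 424, 480.4 and 442 in the control libraries and 469, 447 and 408 in the low-glucose libraries (-0.02 ± 0.09, SE). ATP6V0D1, which joins the ring to the central stalk, had 1126, 1309.7 and 1078 in the control libraries and 1048, 1096 and 1018 in the low-glucose libraries (-0.15 ± 0.09), and ATP6V0E1, a small membrane subunit, had 887, 733 and 1007 in the control libraries and 952, 962 and 980.5 in the low-glucose libraries (0.15 ± 0.10). Of the accessory proteins, ATP6AP1 had 1364, 1334 and 1335 in the control libraries and 1226, 1263 and 1253 in the low-glucose libraries, lower in each low-glucose library, at an adjusted p of 0.278. ATP6AP2, also known as the prorenin receptor, had 957, 756 and 1038 in the control libraries and 989.8, 999 and 1000.2 in the low-glucose libraries, with control library 3 above and the other 2 controls below the low-glucose range (log2 fold change 0.13 ± 0.10 SE, adjusted p = 0.365).

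Control library 2 was the lowest of the controls for 28 of the 49 members, control library 1 for 13 and control library 3 for 8, whereas control library 3 was the highest for 26. The coefficient of variation of the members had a median of 7.63% in the control and 4.62% in the low-glucose libraries and was larger in the control for 35 of the 49. Over all genes tested the medians were 17.0% and 10.8%, so a wider control spread was common to the table.

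Levels of different genes were compared per exon length, as reads per kilobase of merged exon scaled to TPM. PSAP had the highest control level of the 49, at 702 ± 28.6 (SD, n = 3), and MITF the lowest. In low glucose PSAP reached 901 ± 14.3. The 5 highest after PSAP in control cells were PPT1 (327 ± 11.2), ATP6V1F (319 ± 83.6), LIPA (253 ± 12.8), ATP6V0E1 (164 ± 25.5) and LAMP1 (155 ± 5.58). The spread of ATP6V1F reached the levels of both PPT1 and LIPA, and the levels of ATP6V0E1 and LAMP1 lay within 1 SD of each other. The order depended on the length used, because the merged exons of some genes are far longer than their main transcript. With the MANE Select transcript, an alternative added after the values were seen, PSAP remained first (492 ± 8.29), and CTSC moved from rank 19 to 2 (49.4 ± 3.47 to 406 ± 18.4) and CTSZ from 31 to 6 (27.9 ± 2.05 to 223 ± 11.4). ARSG was near the bottom by either length, at rank 46 or 45 of 49, and even after its rise had a level of 13.0 ± 2.22 with merged exons.

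Summed over each class, the level moved little and for the lumenal class depended on the length used. With merged exons, the 26 lumenal members together had 2068 ± 80.5 TPM in control and 2234 ± 35.5 in low-glucose libraries (SD, n = 3 each). With MANE Select lengths, which weigh CTSC and CTSZ more, the same sum was 2922 ± 86.3 and 2914 ± 45.7, with overlapping ranges, so no rise of the class total is shown. The 5 membrane proteins went from 332 ± 20.0 to 357 ± 1.74 with merged exons and from 458 ± 19.3 to 505 ± 4.38 with MANE Select lengths, without overlap in either. For the 15 V-ATPase genes the sums were 1072 ± 128 and 1140.3 ± 15.5 with merged exons, and 1323 ± 72.9 and 1387 ± 14.9 with MANE Select lengths. The transcription factors had 94.0 ± 6.66 and 97.8 ± 4.74, or 75.6 ± 7.30 and 79.8 ± 3.51. Both of these classes overlapped between the conditions by either length. These sums are descriptions and were not tested.

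**Figure D4:**
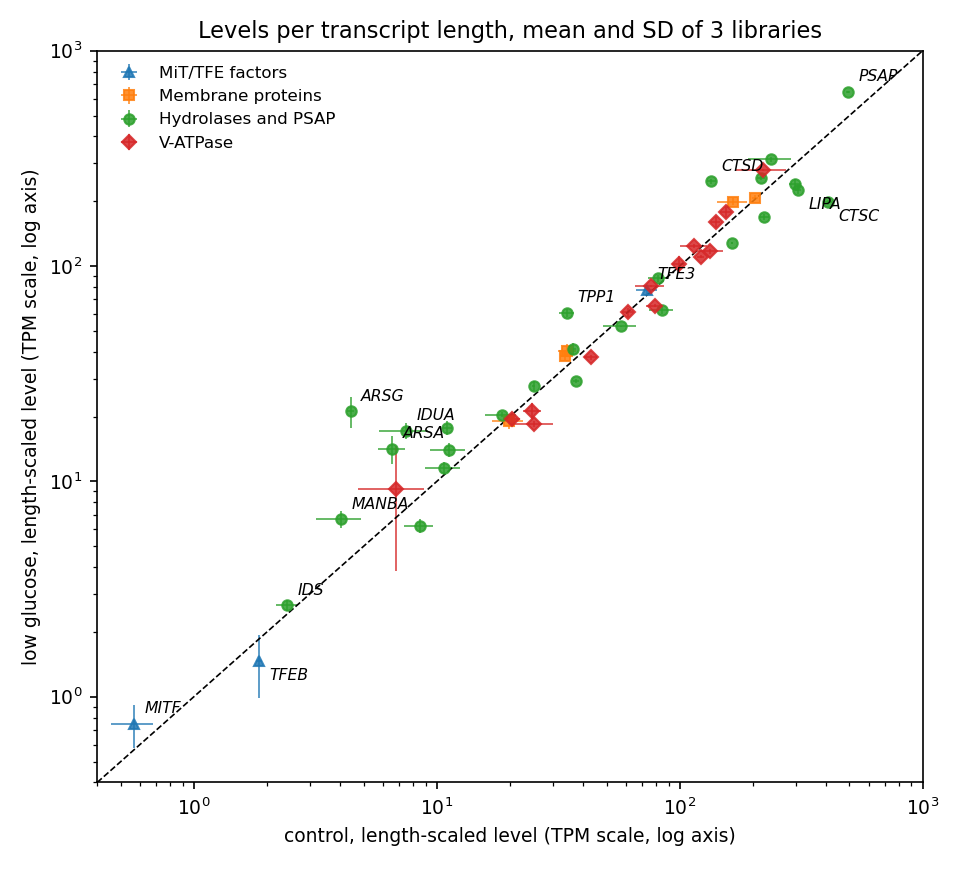
Level per length of the MANE Select transcript (TPM scale, log axes) in low glucose against control for the 49 members, as the mean of 3 libraries with SD in both directions; the dashed line marks equal levels. ARSG, IDUA, ARSA and TPP1 lie well above the line and CTSC below it, while TFE3 lies on it at about the level of many V-ATPase genes.

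The other genes of the pathway, 99 in 5 lists, also moved more often up than down. Of these 99, 94 were tested, 31 rose and 6 fell (14.7% higher and 16.2% lower over all genes tested). A mean of at least 100 was reached by 78 of the 99, and of all genes at that level 18.0% were higher and 30.0% lower. Among other lumenal proteins, 7 of 31 tested rose and 2 fell. The share called was near the 30.9% of all genes tested and below the 48.0% of those with a mean of at least 100. DNASE2, the acid endonuclease, had 351 ± 4.41 to 634 ± 48.9 (mean ± SD, control to low glucose), a log2 fold change of 0.85 ± 0.09 SE, adjusted p = 7.84e-06. ASAH1, the acid ceramidase (0.78 ± 0.13), and AGA, which cleaves asparagine-linked glycans (0.54 ± 0.20, adjusted p = 0.0493), rose too. PLA2G15, a lysosomal phospholipase, fell (-0.59 ± 0.12), as did the sulfatase ARSK (-0.36 ± 0.13, adjusted p = 0.049).

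Other membrane proteins had the highest share of rises of the 5 lists, with 12 of 22 higher and 2 lower. Of all genes with a mean of at least 100, 18.0% were higher and 30.0% lower. The rises of this list were led by transporters: SLC17A5, the exporter of sialic acid, had 203 ± 33.0 to 381 ± 19.3 (log2 fold change 0.92 ± 0.12 SE, adjusted p = 5.00e-05), SLC29A3 exports nucleosides (0.67 ± 0.20), and SLC38A9 senses arginine for mTORC1 (0.59 ± 0.15). SLC36A1, an exporter of small amino acids, fell (-0.66 ± 0.13, adjusted p = 0.00152), and so did LAPTM4B (-0.47 ± 0.08). Of the V-ATPase genes outside the 15, 5 of 15 tested rose and 2 fell. The share called lay between the 30.9% of all genes tested and the 48.0% of those with a mean of at least 100. ATP6V1G2 (47.0 ± 4.69 to 94.5 ± 8.72, log2 fold change 0.99 ± 0.18 SE, adjusted p = 6.20e-04) and ATP6V1E2 (0.68 ± 0.18) are alternative forms of the G and E subunits, and TCIRG1 (0.44 ± 0.09) is the a3 form of the V0 subunit a. WDR7, a partner of the assembly regulator DMXL2, fell (-0.55 ± 0.12), as did the assembly factor VMA21 (-0.27 ± 0.09, adjusted p = 0.0396).

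In the machinery that tags and sorts lysosomal enzymes, 3 of 11 rose and none fell. All 11 had a mean of at least 100, a level at which 48.0% of genes were called (18.0% higher, 30.0% lower). The share called was near the 30.9% of all genes tested and below that 48.0%. GNPTG, a subunit of the enzyme that makes the mannose 6-phosphate tag, had 307 ± 47.6 to 449.9 ± 40.2 (log2 fold change 0.56 ± 0.12 SE, adjusted p = 0.00248). IGF2R, the large receptor for that tag, rose (0.45 ± 0.08), and so did the adaptor GGA1 (0.25 ± 0.09, adjusted p = 0.038). Of 15 tested genes that relay nutrient state to the MiT/TFE factors (Ragulator, Rag GTPases, folliculin and its partners, calcineurin), 4 rose and none fell. All 15 had a mean of at least 100, and the share called was again below that 48.0%. RRAGD, a Rag GTPase that carries TFEB and TFE3 to mTORC1, had 319 ± 34.7 to 535 ± 13.5 (log2 fold change 0.75 ± 0.10 SE, adjusted p = 5.76e-05). RRAGC, its close relative, rose by 0.51 ± 0.13 on the log2 scale, and FLCN, the GTPase-activating protein of both, by 0.32 ± 0.10 (adjusted p = 0.00712 and 0.0213).

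**Figure D5:**
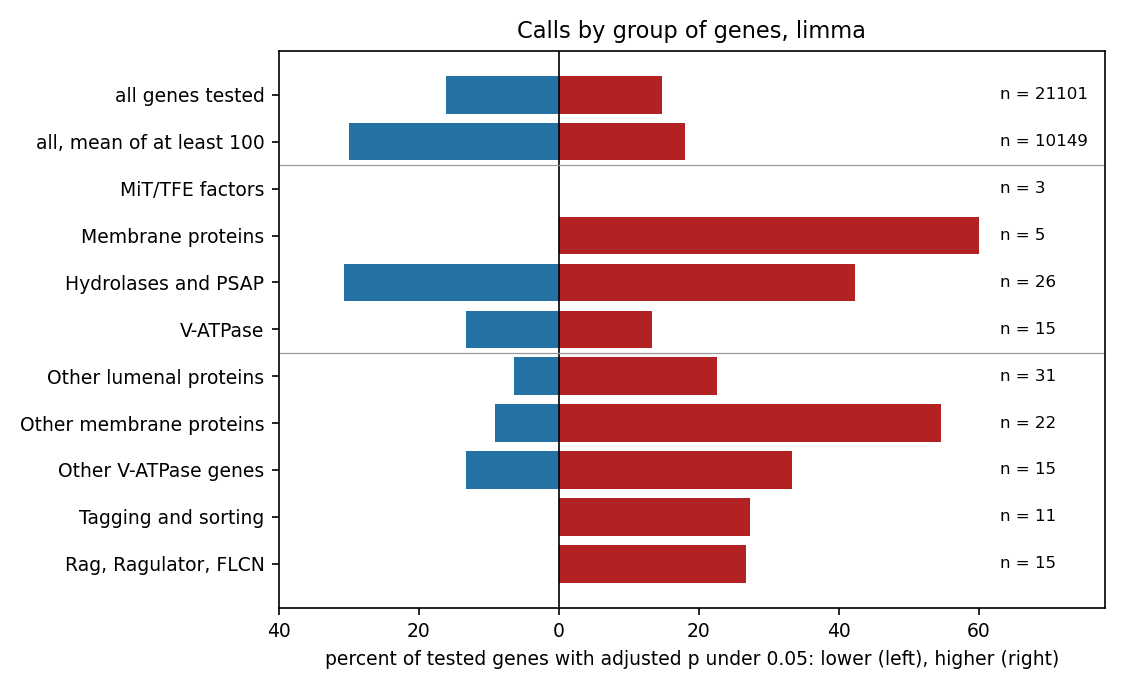
Percent of tested genes called lower (left of 0) and higher (right of 0) by limma in each class of members and each list of other pathway genes, with all genes tested and all genes with a mean of at least 100 at the top. The number tested stands at the right; the classes hold 3 to 31 genes, and the transcription factors have no bar because 0 of 3 passed.

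The depth was 9741183 to 10190154 gene-assigned reads for controls against 10595408 to 13733477 under low glucose, and 46 of the 49 members had at least 50 reads in every library. Of the epithelial markers, KRT8, KRT18 and KRT19 were abundant in control cells and fell, with log2 fold changes of -1.01, -0.74 and -0.83. EPCAM and CDH1 had at most 3 reads in a library and KRT7 at most 12. VIM, the mesenchymal filament, was the most abundant marker and rose (0.42). PTPRC and DCN, which define leukocytes and fibroblasts, had no read in any library. The summed level of the 4 leukocyte and macrophage markers was 7.55 to 10.1 TPM in the control and 2.29 to 4.86 in the low-glucose libraries, and that of the 5 fibroblast and endothelial markers 7.84 to 9.55 and 0.668 to 0.897. Nearly all of the latter was CDH5, at 180.5, 184 and 155 in the control libraries and 9.62, 9.88 and 12.1 in the low-glucose libraries, while PECAM1 had at most 3 reads. The part of these markers in the lysosomal values was not tested.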

How the data were processed

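RNA-seq of 3 low-glucose and 3 control libraries of MiaPaCa-2 cells was analysed from 1 table. The authors trimmed reads (Trim Galore), mapped them to hg38 (STAR 2.7.0e) and used DESeq2; RSEM is in the study's software list without mention of this table, and the strand setting of the counting and the annotation are not given in the sources used here. Per gene, the deposited number is a size-factor-scaled count (a signal, not whole reads). Dividing by what 1 read is worth gave whole numbers for 100% of entries in each library (tolerance 0.01), so reads were recovered, and recomputed median-of-ratios factors matched the deposited ones (ratio 1). Libraries held 9741183 to 13733477 reads, and a gene near 10 reads is measured imprecisely.

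Log2(value + 1) for 21101 genes (mean value 1 or more) was fitted with limma 3.58.1 in R 4.3.3 (lmFit, eBayes with trend, two-sided, Benjamini-Hochberg, threshold 0.05). The fold change of a gene with few reads is understated by the pseudocount. The test was first run on simulated data. Alternatives were library size, TMM and quantile scaling, no filter, a mean of at least 10, a pseudocount of 0.1, no trend, DESeq2 1.42.0 and edgeR 4.0.16 (quasi-likelihood) on the recovered reads, and each library left out. Gene models came from Gencode v44 (99.4% of identifiers matched) and promoter windows from RefSeq; 13 members without a window were not searched.

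The members and lists were chosen with earlier results of these data known. All members are named, with every library value, and from each list of other pathway genes up to 3 rises and 3 falls with the largest change at a mean of at least 10. Some further genes of these lists are named beside related members, among them the other cathepsins, ATP6V1C2, ATP6V0A2 and ATP6V0E2. Of the genes that share exon bases with a member, only some are named. The lists are other lumenal proteins, other membrane proteins, other V-ATPase genes, tagging and sorting, the relay to MiT/TFE factors, and markers of epithelial, mesenchymal, leukocyte, fibroblast and endothelial cells.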

Additional observations from a re-analysis of the deposited data

How the results depend on the processing

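Of the 735 refits of a member's log2 fold change (49 members under 15 alternatives), 616 kept the direction and the side of the threshold, 79 of called members lost the call, 21 of other members gained one and 19 changed sign; all 19 belonged to genes that had not passed, and none passed after the change. With all libraries kept, the sign changed for MCOLN1 (0.0613 with library size, 0.0017 with edgeR), GUSB (0.0056 with library size, 0.0193 with quantile scaling), ATP6V0A1 (0.0569 and 0.0267), and, with quantile scaling, ATP6AP1 (0.0698) and ATP6V0D1 (0.0172). With 1 library left out, the log2 fold change spanned 0 for MCOLN1 (−0.1215 to 0.0333), GUSB (−0.2253 to 0.0253), SMPD1 (−0.0157 to 0.2525), ATP6AP2 (−8e-04 to 0.2278), ATP6V0A1 (−0.0692 to 0.031), ATP6V0C (−0.0738 to 0.6313) and ATP6V1D (−0.0218 to 0.0692).

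A variance model without trend lowered the number of called genes most: 4090 in all, 1991 of them lower, 12 members (8 higher and 4 lower), 18 other pathway genes and 0 V-ATPase rises. With 1 library left out the count ranged from 4319 to 7251 for all genes (higher 1931 to 3534), from 13 to 29 for members (higher 8 to 19, lower 4 to 11), from 22 to 44 for other pathway genes and from 0 to 4 for V-ATPase rises; 2 libraries then stood for that condition. Quantile scaling gave 6 falls among members and 4 V-ATPase rises; the latter count was 1 without a filter, with a pseudocount of 0.1 and with DESeq2. An alternative added after the data were seen kept the 29 members that share no exon bases with a gene of 10 or more reads. Of these, 14 were called, 8 higher and 6 lower, beside 48.0% of all genes with a mean of at least 100. They held 5 rises among lumenal members and 1 in the V-ATPase. The causes of these differences were not tested, except that the last alternative holds fewer genes. No paired analysis was possible because replicate numbers are missing from 4 of the 6 columns. TFEB and MITF had few reads, and ATP6V0C had 1 library far from the others. The summed level of the lumenal members, low glucose minus control, was 166 TPM with merged exons and −7.6 with MANE Select lengths, a change of sign.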
